A study of Mus musculus with 8 samples.

Results

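The kidneys compared here came from male mice in which Bmal1 (listed as Arntl in the files) was inactivated in the renal tubule, and from control littermates, killed at ZT4. ZT4 is the time 4 hours after lights on, in the resting phase of mice. The comparison holds 4 of the 8 libraries of the series, which are the 2 cKOt_ZT4 and the 2 Ctrl_ZT4 libraries, and 40202 of the 81319 nuclei. Its groups were set by the labels of genotype and time point and not by any measured value. Nuclei were kept or left out by their counts, as given below. All mice were homozygous for floxed Bmal1 (Bmal1lox/lox) on a C57BL/6J background, and cKOt mice differed from Ctrl mice by 2 transgenes, Pax8-rtTA and LC-1. In such mice the Pax8 promoter drives a doxycycline-dependent activator in renal tubule cells, and the activator turns on Cre recombinase from LC-1. Mice of both genotypes were 8 weeks old when they received doxycycline (2 mg/ml, with 20 mg/ml sucrose, in drinking water) for 2 weeks, so the drug and the lox sites are shared and the transgenes are not. A control with the transgenes and unfloxed alleles was not analysed here, and effects of Cre itself and of Bmal1 loss cannot be told apart. The other 4 libraries (Ctrl_ZT16 and cKOt_ZT16) were used for the shared estimate of spread and for the difference between time points.

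In the mammalian circadian clock, BMAL1 pairs with CLOCK or with its paralog NPAS2, and the pair activates genes that carry E-box sequences, among them the Per, Cry, Nr1d and Dbp genes. PER and CRY proteins repress the pair, while the REV-ERB receptors (Nr1d1, Nr1d2) repress Arntl itself through receptor sites. The kidney tubule follows this cycle in its handling of salt, water, organic ions and drugs.

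Nuclei were sorted by DAPI signal and sequenced in droplets, and the deposited values are counts of unique molecular identifiers (UMIs), each standing for 1 captured transcript. A nucleus was kept if it had 500 or more detected genes, 800 or more UMIs and no more than 2% of its UMIs on mitochondrial genes. The Ctrl_ZT4 libraries then held 9895 and 9971 nuclei and the cKOt_ZT4 libraries 10352 and 9984, with 36545383 to 50781445 UMIs per library and a median of 3003 to 4157.5 UMIs per nucleus. Nuclei with at least 3 of 10 brown-fat genes were left out: 1 and 2 in the Ctrl_ZT4 libraries, and 22 and 41 in the cKOt_ZT4 libraries. Within each of the 4 groups, the counts of the 2 libraries differed by more than sampling noise, as copies of 1 library would not (chi-square per degree of freedom 31.1 to 55.7), and any 2 libraries shared at most 42 cell barcodes. According to the methods each library is 1 mouse. Defining markers of kidney cell types were present throughout: the summed level of 17 proximal tubule markers was 10150 and 10290 CPM in the Ctrl libraries and 10160 and 10560 CPM in the cKOt libraries. CPM is the usual library-scaled count, the UMIs of a gene relative to all mRNA UMIs of its library (for a lncRNA, to all lncRNA UMIs), with the total adjusted by the TMM method.

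The summed levels of immune and stromal markers were lower in both cKOt libraries than in both Ctrl libraries, and no single leukocyte gene was called by edgeR. The summed CPM of 16 immune markers was 165 and 196 in Ctrl against 105 and 118 in cKOt, and that of 12 stromal markers was 341 and 361 against 266 and 210. Of 11 leukocyte genes tested, 7 had an unadjusted p under 0.05, where 1404 of all 16140 mRNAs had one. DESeq2 called Ptprc and Cd74 lower, beside 184 of all mRNAs. The median log2 fold change of the 11 was −0.74. Nuclei of immune clusters made up 4.15% and 4.57% of the Ctrl nuclei against 3.14% and 3.10% of the cKOt nuclei. In sums over all nuclei, fewer cells of a type and less RNA per cell cannot be told apart. With equal numbers of nuclei drawn from each class in every library, 70 mRNAs were called (44 higher, 26 lower) in place of 67, and 33 lncRNAs in place of 31.

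UMIs were summed over all nuclei of each library, and cKOt was tested against Ctrl in a joint edgeR quasi-likelihood model of the 8 libraries, with Benjamini-Hochberg adjustment. A gene is called when the adjusted p is under 0.05. Of 16140 mRNAs tested, 44 (0.273%) were called higher and 23 (0.143%) lower in cKOt than in Ctrl. The mRNAs that rose were led by the clock activators Npas2 and Arntl and the clock repressor Cry1, and by genes outside the clock such as Rhobtb1, Fhad1, Ddc, Ypel2 and Lingo4. Those that fell were led by the xenobiotic enzymes Cyp2a4 and Cyp2a5, the clock genes Per3, Nr1d2, Ciart and Dbp, and Adgrb3, Gda, Aspa and Gjb2. The median log2 fold change over all mRNAs tested was 0.00. All 67 calls were also made by DESeq2, which called 328 mRNAs in all (144 higher, 184 lower). The count fell to 23 without Ctrl_ZT4 replicate 2 and to 43 without cKOt_ZT4 replicate 1. Without Ctrl_ZT4 replicate 1 it was 45, of which 15 were higher and 30 lower, so that the share of higher calls was 33.3% in place of 65.7%. Of the 67 mRNAs, 17 were called whichever ZT4 library was left out. With 2 mice in a group, the spread behind each p comes from the pairs of all 4 groups.

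**Figure D1:**
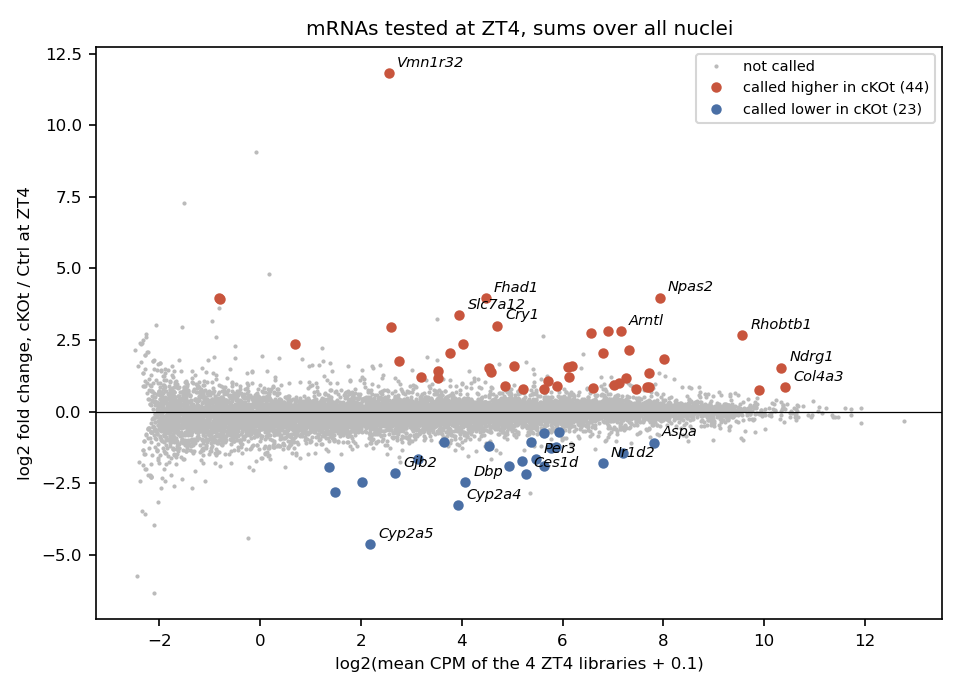
Each point is 1 of the 16140 mRNAs tested at ZT4, with the log2 of its mean CPM over the 4 libraries (plus 0.1) on the x axis and the fitted log2 fold change of cKOt over Ctrl on the y axis. Red points (44) were called higher and blue points (23) lower, and most grey points lie close to 0. The fitted value of Vmn1r32, at the top, is set by a count of 0 in Ctrl and is no measure of its size.

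Promoter windows of 5 called clock genes that hold a match are shown because the clock factors named above act through short sequences in such windows. They are from RefSeq on build GRCm38.p6 and run from 250 bases before to 50 bases after the annotated start, written 5′ to 3′ on the strand of the gene. Capitals mark matches, on either strand, to the E-box CACGTG, the E-prime box CACGTT, the D-box TTATGTAA or TTACGTAA, and the site AGGTCA bound by REV-ERB receptors. Cry1 (chr10:85185005-85185304, minus strand) held an E-box and an E-prime box. Ciart (chr3:95882179-95882478, minus strand) held 3 E-boxes. Per3 (chr4:151044616-151044915, minus strand) held 2 D-boxes, while Arntl (chr7:113207261-113207560, plus strand) and Nr1d2 (chr14:18239057-18239356, minus strand) each held a receptor site. Arntl has 2 overlapping windows in the RefSeq table, and the one printed holds the match while the other holds none. The windows of Npas2 and Dbp, also called, held no match to these letters.
Cry1: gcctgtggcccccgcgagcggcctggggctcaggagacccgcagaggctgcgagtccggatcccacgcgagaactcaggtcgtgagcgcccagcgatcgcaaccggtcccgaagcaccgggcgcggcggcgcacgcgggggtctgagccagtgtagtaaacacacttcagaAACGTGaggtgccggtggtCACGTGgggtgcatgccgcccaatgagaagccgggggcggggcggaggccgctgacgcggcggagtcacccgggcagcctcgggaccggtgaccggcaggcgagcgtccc
Ciart: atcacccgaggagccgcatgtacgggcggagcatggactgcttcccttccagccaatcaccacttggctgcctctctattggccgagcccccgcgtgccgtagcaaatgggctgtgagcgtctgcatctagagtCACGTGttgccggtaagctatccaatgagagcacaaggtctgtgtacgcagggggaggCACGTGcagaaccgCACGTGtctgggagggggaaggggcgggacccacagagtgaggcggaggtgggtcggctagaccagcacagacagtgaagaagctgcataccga
Per3: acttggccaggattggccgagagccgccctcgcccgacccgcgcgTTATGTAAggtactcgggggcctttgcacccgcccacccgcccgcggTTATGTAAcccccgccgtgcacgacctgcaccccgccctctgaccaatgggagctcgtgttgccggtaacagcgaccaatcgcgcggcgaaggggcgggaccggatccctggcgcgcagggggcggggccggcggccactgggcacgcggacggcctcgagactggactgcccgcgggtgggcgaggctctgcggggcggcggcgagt
Arntl: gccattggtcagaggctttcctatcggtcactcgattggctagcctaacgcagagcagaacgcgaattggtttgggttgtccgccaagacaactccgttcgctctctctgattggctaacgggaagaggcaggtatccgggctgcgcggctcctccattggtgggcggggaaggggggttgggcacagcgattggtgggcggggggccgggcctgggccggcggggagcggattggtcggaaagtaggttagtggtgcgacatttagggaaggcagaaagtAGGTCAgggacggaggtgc
Nr1d2: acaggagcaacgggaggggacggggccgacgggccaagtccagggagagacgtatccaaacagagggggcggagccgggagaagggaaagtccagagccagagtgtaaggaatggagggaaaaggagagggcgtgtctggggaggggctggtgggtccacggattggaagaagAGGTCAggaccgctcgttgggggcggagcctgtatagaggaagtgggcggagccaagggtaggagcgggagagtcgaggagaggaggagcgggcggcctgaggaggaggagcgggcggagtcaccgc

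The 2 promoters with E-boxes belong to genes that moved in opposite directions, since Cry1 rose and Ciart fell in cKOt, and the same holds for Arntl and Nr1d2, which each hold an AGGTCA match in a window. A window was found for 53 of the 67 called mRNAs. An E-box was present in 18.2% of the windows of mRNAs called higher and 5.0% of those called lower, against 10.8% of all tested mRNAs and 8.09% of all genes with a window. The E-prime box was present in 12.1%, 10.0%, 6.17% and 5.44% of the same sets, the D-box in 0%, 5.0%, 0.957% and 1.23%, and the AGGTCA site in 24.2%, 30.0%, 15.9% and 18.1%. These shares rest on 33 and 20 windows and are a description, and a match of letters is not a bound site.

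Among the clock activators, Npas2 and Arntl rose and Clock and Arntl2 did not pass the test. The level of Arntl (ENSMUSG00000055116), which the deletion targets, was 38.2 and 33.1 CPM in the Ctrl libraries and 296 and 202 CPM in the cKOt libraries, a log2 fold change of 2.80 ± 0.19 (SE, n = 2 mice in each group; adjusted p = 0.000497 by edgeR's quasi-likelihood test). The files give 1 count for the whole gene, deleted part included, so this level checks neither the deletion nor the genotype labels. Npas2, the paralog of CLOCK, had 25.1 and 33.0 CPM in Ctrl and 495 and 421 CPM in cKOt (log2 fold change 3.98 ± 0.17). For both genes every cKOt library lay far above every Ctrl library. Clock had 162 and 157 CPM against 231 and 198 CPM, groups that did not overlap, with a log2 fold change of 0.42 (adjusted p = 0.256 by edgeR). Arntl2, a paralog of Bmal1, had 7.78 to 10.6 CPM in the 4 libraries and overlapped between the groups.

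The repressors of the clock did not move together: of 8 tested, Cry1 rose, Per3 and Ciart fell, and 5 did not pass the test, where 0.273% of all mRNAs rose and 0.143% fell. Cry1, which encodes a cryptochrome, had 6.30 and 5.21 CPM in Ctrl and 54.2 and 38.0 CPM in cKOt (log2 fold change 3.001 ± 0.19). Its paralog Cry2 had 41.0 and 37.2 CPM against 54.4 and 69.2 CPM (log2 fold change 0.66, adjusted p = 0.163 by edgeR), and DESeq2 called it higher. The gap between genotypes was wide for Cry1 and narrow for Cry2, and 36.5% of all mRNAs tested were without overlap between the groups.

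The period genes showed the same lack of unity. Per3 had 65.8 and 68.1 CPM in Ctrl and 19.8 and 22.7 CPM in cKOt, a fall by 1.66 on the log2 scale (SE 0.15). Per1 had 27.0 and 11.3 CPM against 24.2 and 8.33 CPM, and Per2 had 43.9 and 40.2 CPM against 96.5 and 51.5 CPM (log2 fold changes −0.24 and 0.81). The 2 mice of a group differed more in Per1 than the genotypes did, and only 1 cKOt library was far above Ctrl in Per2. Ciart, a repressor of the CLOCK and BMAL1 pair, had 8.23 and 5.24 CPM in Ctrl and 1.10 and 1.32 CPM in cKOt (log2 fold change −2.47 ± 0.29), and it was not called without cKOt_ZT4 replicate 1. Bhlhe40 had 53.7 and 24.2 CPM against 49.0 and 47.6 CPM, and Bhlhe41 had 2.28 to 3.39 CPM in Ctrl against 2.19 and 2.32 CPM in cKOt.

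Among the nuclear receptors of the clock, Nr1d2 fell. Nr1d2 (REV-ERB beta) had 166 and 179 CPM in Ctrl and 45.4 and 53.0 CPM in cKOt (log2 fold change −1.81 ± 0.16). The Ctrl mice were close to each other and well apart from the cKOt mice. Nr1d1 (REV-ERB alpha) had 23.9 and 28.1 CPM against 6.97 and 10.6 CPM, with a log2 fold change of −1.56 that did not pass the limit in whole libraries (adjusted p = 0.0697 by edgeR) and passed it with DESeq2. Rora had 1492 and 1549 CPM against 1110 and 1258 CPM, and Rorb 14.1 and 13.5 CPM against 7.84 and 6.02 CPM, of which DESeq2 called Rorb lower. These 4 receptors were without overlap between the groups, as were 36.5% of all mRNAs tested.

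Of the PAR bZIP factors, which drive output genes through D-boxes, Dbp alone was called in whole libraries, by edgeR. Dbp had 32.0 and 24.7 CPM in Ctrl and 3.59 and 6.62 CPM in cKOt (log2 fold change −2.47 ± 0.29), and it was not called without Ctrl_ZT4 replicate 1. Tef had 273 and 278 CPM against 128 and 172 CPM (log2 fold change −0.88, adjusted p = 0.0771 by edgeR) and was called by DESeq2, and Hlf had 165 and 161 CPM against 169 and 185 CPM. Nfil3, which competes with these factors at D-boxes, had 2.52 and 1.85 CPM in Ctrl and 28.0 and 12.5 CPM in cKOt. With a log2 fold change of 3.22 and an adjusted p of 0.0504 by edgeR, Nfil3 was the mRNA nearest to the limit on its outer side, and Cluh (log2 fold change 0.82, adjusted p = 0.0496) was nearest on its inner side. DESeq2 called Nfil3 higher. None of 15 accessory clock regulators, such as kinases and ubiquitin ligases of the clock proteins, was called by edgeR or DESeq2, 2 had an unadjusted p under 0.05, and their median log2 fold change was 0.10. The medians of the clock lists were 1.61 for activators, 0.03 for repressors and −0.38 for the PAR bZIP factors with Nfil3. Of 16 clock genes that the study itself shows, 4 rose, 2 fell and 14 had an unadjusted p under 0.05, where 0.273% of all mRNAs rose, 0.143% fell and 1404 of 16140 had such a p. DESeq2 called 6 of the 16 higher and 5 lower, beside 144 higher and 184 lower of all 16140 mRNAs. The list of 16 overlaps the lists above and is not independent evidence of a direction.

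**Figure D2:**
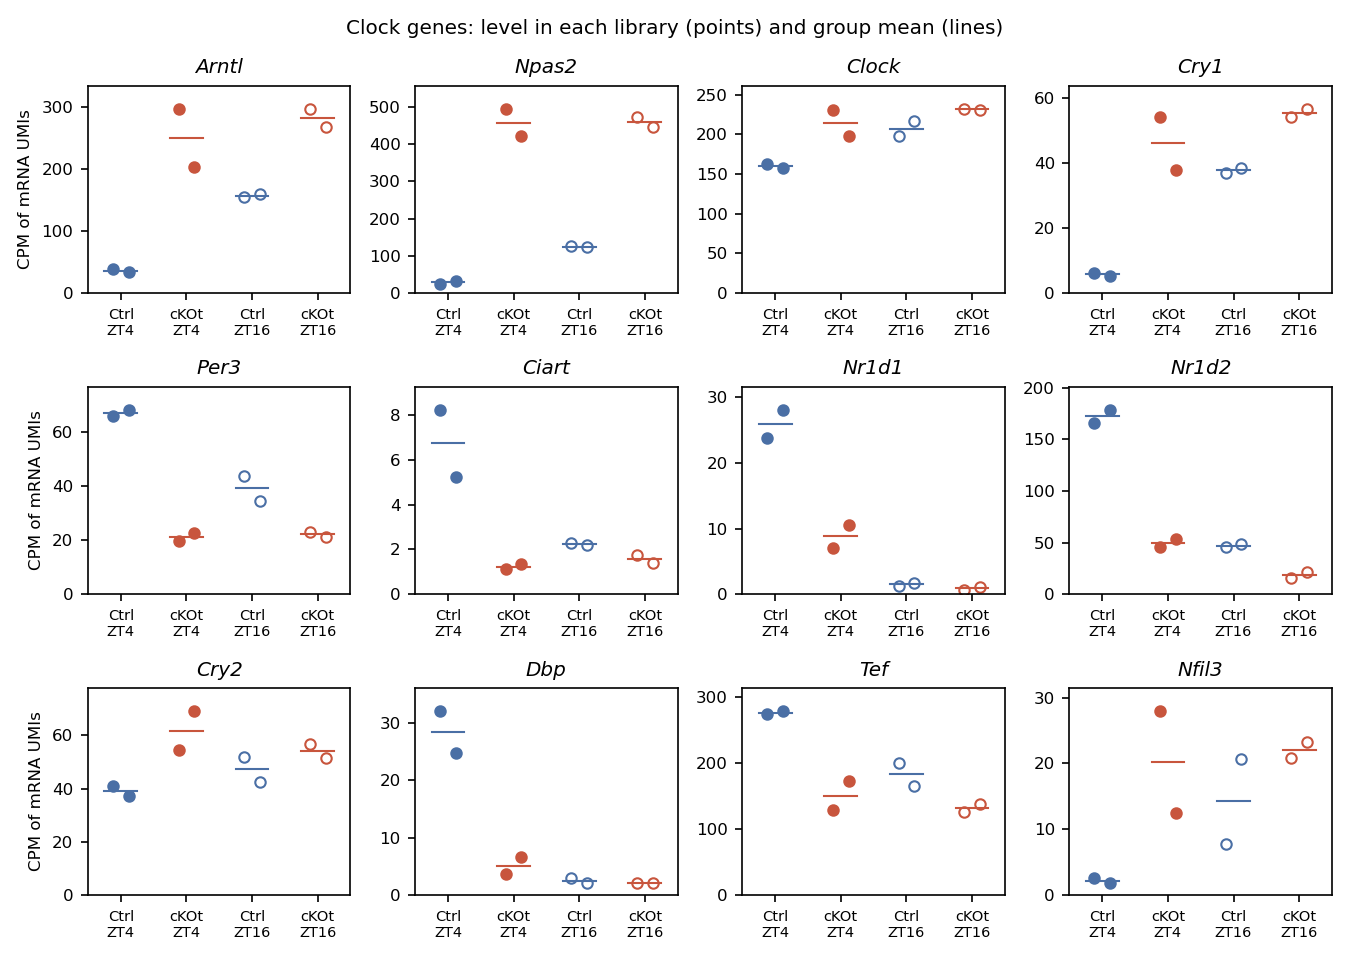
Each panel plots 1 clock gene, with CPM of mRNA UMIs on the y axis, a point for each library (filled at ZT4, open at ZT16; blue Ctrl, red cKOt) and a line at the mean of the 2 mice of a group. The ZT4 libraries of the genotypes are far apart for Arntl, Npas2, Cry1 and Nr1d2, and the cKOt libraries have similar levels at ZT4 and ZT16 for Arntl and Npas2.

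The ZT4 levels in cKOt can be set beside those in Ctrl at ZT16, 12 hours later. Ctrl_ZT16 libraries had 37.0 and 38.6 CPM of Cry1 and 45.3 and 48.8 CPM of Nr1d2, close to cKOt at ZT4. Arntl and Npas2 were higher in cKOt at ZT4 than in Ctrl_ZT16 libraries, which had 154 and 159 CPM of Arntl and 126 and 125 CPM of Npas2. Per3 and Ciart were lower in cKOt at ZT4 than in Ctrl_ZT16, which had 43.6 and 34.6 CPM of Per3 and 2.28 and 2.18 CPM of Ciart. Dbp (2.92 and 2.13 CPM) and Nr1d1 (1.21 and 1.72 CPM) were lower in Ctrl_ZT16 than in cKOt at ZT4. These values were not tested against each other.

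Whether the genotype difference at ZT4 differs from that at ZT16 was tested as an interaction over the 8 libraries. Of 16346 mRNAs, 3 (0.0184%) were called, and all 3 rose more at ZT4: Npas2 by a further 2.10 ± 0.21 on the log2 scale, Cry1 by 2.45 ± 0.26 and Rhobtb1 by 1.94 ± 0.21 (adjusted p = 0.0416 for each, by edgeR). At ZT16 the log2 fold changes of these genes were 1.88, 0.55 and 0.72. Arntl, Lingo4 and Mcm6, a helicase subunit of DNA replication, were close to the limit with differences of 1.96, 2.39 and −1.84 (adjusted p = 0.0852). DESeq2 called 40 mRNAs. No mRNA was called with a replicate block or with the newer edgeR dispersion method, and leaving out single libraries left 0 to 2 calls. No lncRNA of 4923 was called by edgeR, and DESeq2 called 1. By edgeR, 200 of the 4923 lncRNAs had an unadjusted p under 0.05, as did 676 of the 16346 mRNAs.

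Of the mRNAs called at ZT4, 65 of 67 had the same sign at ZT16, and 19 were also called there. Of all mRNAs tested at both times, 9535 of 15886 had the same sign. The median size of the change among the 67 was 1.60 on the log2 scale at ZT4 and 0.81 at ZT16. The 67 were chosen at ZT4, which by itself favours a larger first value, and the part of this choice was not tested. At ZT16 the log2 fold changes of Fhad1, Slc7a12 and Hao2 were 4.81, 4.24 and 2.98, and those of Cyp2a5 and Cyp2a4 were −3.96 and −2.78, all called there by edgeR. Those of Dbp, Ndrg1, Col4a3 and Col4a4 were −0.27, 0.13, 0.04 and 0.04, none of them called. The difference between time points was not called for any gene of either set.

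**Figure D3:**
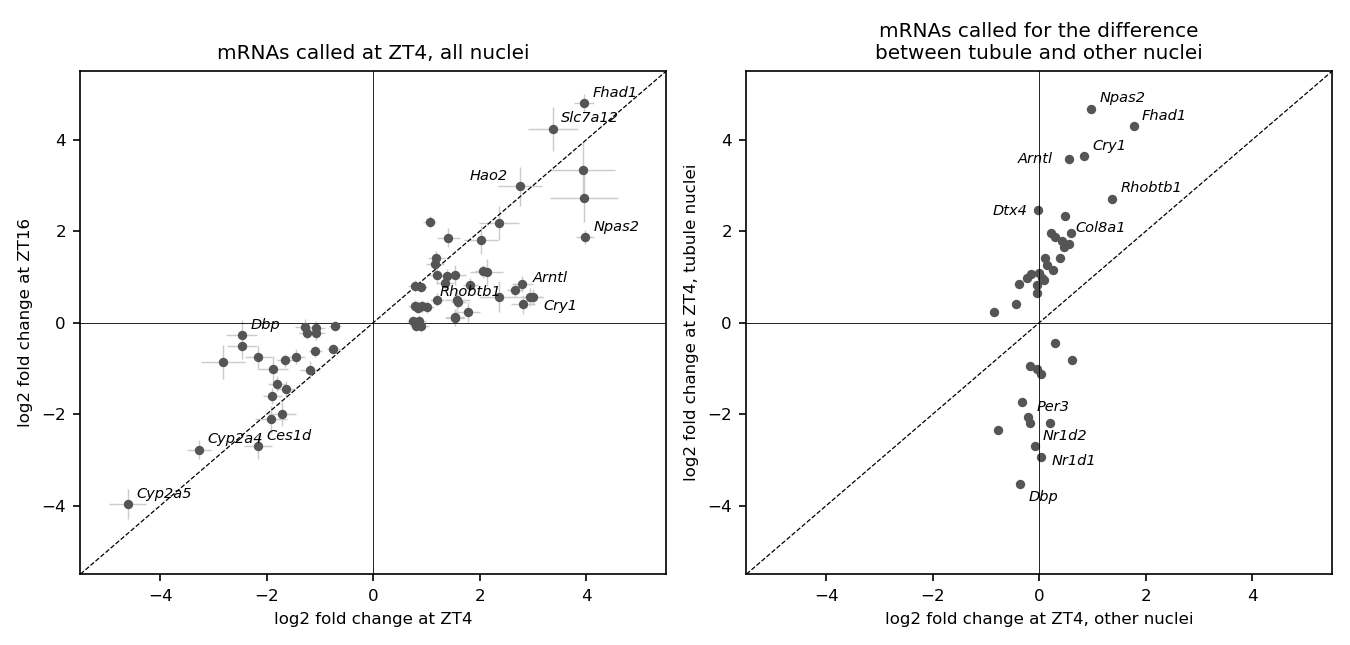
Left: log2 fold change at ZT4 (x axis) and ZT16 (y axis) of the mRNAs called at ZT4, with bars of 1 SE and without Vmn1r32; Npas2, Cry1, Rhobtb1 and Arntl lie well below the dashed line of equality. Right: log2 fold change at ZT4 in other nuclei (x axis) and tubule nuclei (y axis) of the 40 mRNAs called for the difference between them; most points lie near 0 on the x axis.

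Outside the clock, the mRNAs with the smallest p that rose included genes with no common role. Rhobtb1, which encodes an adaptor of a cullin ubiquitin ligase, had 189 and 222 CPM in Ctrl and 1361 and 1248 CPM in cKOt (log2 fold change 2.66 ± 0.15). Fhad1, which encodes a protein with a phosphopeptide-binding domain, had 2.97 and 2.38 CPM against 40.7 and 42.5 CPM (3.96 ± 0.19). In both, the mice of a genotype differed little from each other. Ddc, the decarboxylase that makes dopamine in the kidney, had 41.7 and 44.3 CPM in Ctrl and 184 and 175 CPM in cKOt (2.06 ± 0.14). Ypel2 had 112 and 114 CPM against 396 and 405 CPM, and Lingo4 had 1.20 and 1.49 CPM against 11.2 and 9.80 CPM. All of these calls held without each of the ZT4 libraries.

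Vmn1r32, which encodes a vomeronasal receptor, had no UMI in either Ctrl_ZT4 library and 364 and 520 UMIs in the cKOt_ZT4 libraries. Against a floor of 3 counts in each Ctrl library it was at least 136-fold higher in cKOt. At ZT16 it had 1 UMI in each Ctrl library and 330 and 362 in the cKOt libraries, so the gap was present at both times. In the cKOt_ZT4 libraries its UMIs came from many tubule segments, with 134 and 229 in proximal tubule nuclei, 59 and 77 in thick ascending limb nuclei and 47 and 82 in distal convoluted and connecting tubule nuclei. A related receptor gene, Vmn1r18, moved the other way, from 197 and 232 CPM in Ctrl to 87.6 and 69.4 CPM in cKOt (log2 fold change −1.45), and was not called without Ctrl_ZT4 replicate 2. Vomeronasal receptor genes resemble one another, so how reads were divided among them is uncertain.

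Fhad1os2, Tnfsf4 and Aqp8 were also close to absent in Ctrl and are given in UMIs because their folds rest on few counts; Tnfsf4 and Aqp8 were chosen after their values were seen. Fhad1os2, a lncRNA antisense to Fhad1, had 0 and 2 UMIs in Ctrl and 22 and 28 in cKOt. Tnfsf4, which encodes the OX40 ligand, had 2 and 2 UMIs against 25 and 44. Aqp8, a water channel, had 1 and 3 UMIs against 19 and 51. In each, the lowest cKOt library was far above the highest Ctrl library. Fhad1os2 was called in every fit that left out a ZT4 library, and neither Tnfsf4 nor Aqp8 was.

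Of the functional lists, those of drug and hormone metabolism held the most mRNAs that fell. Of 20 cytochrome P450 and heme genes tested, 3 fell and none rose by edgeR, where 0.143% of all mRNAs tested fell and 0.273% rose. DESeq2 called 1 of the 20 higher and 5 lower, beside 144 higher and 184 lower of all 16140 mRNAs. The median log2 fold change of the 20 was −0.44, against 0.00 over all mRNAs. Cyp2a4, a steroid hydroxylase, had 28.5 and 26.6 CPM in Ctrl and 2.63 and 3.08 CPM in cKOt (log2 fold change −3.27 ± 0.23). Cyp2a5, its close paralog, had 10.7 and 6.27 CPM against 0.376 and 0.313 CPM (−4.62 ± 0.34). Both genes were at or below 3.1 CPM in each cKOt mouse, and because their sequences are nearly identical their reads may be shared. Cyp1b1 had 15.0 and 18.9 CPM against 7.73 and 8.40 CPM (−1.07 ± 0.16), a call lost when 3 of the 4 ZT4 libraries were left out in turn.

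Of 26 genes of phase II conjugation and hydrolysis, 3 fell and none rose by edgeR, beside the same 0.143% and 0.273% of all mRNAs. Their median was −0.27, and DESeq2 called 5 of the 26 lower, beside 184 of all 16140 mRNAs. Nat8f1 and Nat8f3, of the N-acetyltransferase 8 family, had 88.3 and 75.0 CPM in Ctrl against 30.7 and 38.4 CPM in cKOt, and 83.3 and 71.8 CPM against 13.5 and 28.3 CPM. Ces1d, a carboxylesterase, had 60.4 and 65.0 CPM against 9.52 and 18.4 CPM (log2 fold change −2.17 ± 0.27). In all 3 genes the cKOt mice were below the Ctrl mice and unequal among themselves. Each call was lost without at least 1 ZT4 library. The Nat8f and Ces1 genes lie in families of close copies, so single members are uncertain.

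The other mRNAs with the smallest p among those that fell had varied roles. Adgrb3, an adhesion receptor, had 53.9 and 41.8 CPM in Ctrl and 13.3 and 12.4 CPM in cKOt (log2 fold change −1.89 ± 0.18). Gda, guanine deaminase, had 14.5 and 11.8 CPM against 4.14 and 4.31 CPM (−1.64 ± 0.18). Aspa, aspartoacylase, had 295 and 314 CPM against 146 and 142 CPM (−1.09 ± 0.12). The cKOt mice were nearly equal in each of these genes. Gjb2, which encodes connexin 26, had 11.8 and 8.82 CPM against 1.85 and 2.74 CPM (−2.16 ± 0.25). Gjb2 was not called without cKOt_ZT4 replicate 1, and the call of Aspa was lost when 3 of the 4 ZT4 libraries were left out in turn.

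Further mRNAs called in whole libraries are given here after their values were seen, of which Ndrg1, Hao2 and Folh1 fall under the naming rule only for classes of nuclei. Ndrg1, a gene known to respond to hypoxia, had 597 and 725 CPM in Ctrl and 2116 and 1716 CPM in cKOt (log2 fold change 1.53 ± 0.17). Col4a3 and Col4a4, which encode chains of basement membrane collagen and overlap on opposite strands, had 867 and 1079 against 1736 and 1786 CPM, and 707 and 717 against 1187 and 1203 CPM. Hao2, a peroxisomal oxidase, had 23.2 and 25.8 CPM against 92.4 and 238 CPM, and Folh1, a carboxypeptidase, had 55.3 and 63.3 CPM against 343 and 178 CPM. Both were higher in each cKOt mouse, and the cKOt mice were further from each other than the lower of them was from Ctrl. None of Ndrg1, Col4a3, Col4a4, Hao2 and Folh1 was called in every fit that left out a ZT4 library.

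In sums over all nuclei, most functional lists of kidney genes held few calls. None of 25 sodium transport genes, 10 potassium channels, 11 water and urea transport genes, 29 organic ion transporters, 23 genes of glucose transport and gluconeogenesis, or 28 of fatty acid oxidation and PPAR alpha targets was called by edgeR. Their median log2 fold changes lay between −0.14 and 0.11, and 2, 1, 2, 5, 5 and 5 of their members had an unadjusted p under 0.05, beside 1404 of all 16140 mRNAs. DESeq2 called Aqp6, Slc22a5 and Acaa1b lower and Pck1 higher, and none of the sodium and potassium genes. Over all 16140 mRNAs it called 184 lower and 144 higher. Within PT nuclei alone, edgeR called 1 organic ion transporter and 2 genes of fatty acid oxidation and PPAR alpha targets lower, of 29 and 28 tested, where 0.385% of all mRNAs were lower. Of 21 amino acid transporters, Slc7a12 alone rose (0.273% of all mRNAs did), from 3.94 and 1.56 CPM in Ctrl to 23.9 and 32.0 CPM in cKOt (log2 fold change 3.37 ± 0.47), and it was not called without 3 of the ZT4 libraries in turn. Of 18 genes of tubular injury and repair, 7 had an unadjusted p under 0.05, where 1404 of all 16140 mRNAs had one. The median log2 fold change of the 18 was −0.13, and 8 of them were above 0. By edgeR Dcdc2a alone rose, where 0.273% of all mRNAs did. Dcdc2a, a doublecortin-domain gene, had 40.7 and 32.1 CPM in Ctrl against 91.0 and 127 CPM in cKOt. DESeq2 called Dcdc2a and Cdkn1a higher, beside 144 of all 16140 mRNAs. The call of Dcdc2a was lost when 3 of the 4 ZT4 libraries were left out in turn.

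Lists of general responses gave no call by edgeR in sums over all nuclei, and 1 of 17 nephron identity factors was called lower in PT nuclei, where 0.385% of all mRNAs were. The 15 glucocorticoid targets, 18 immediate early genes, 15 heat shock and cold-inducible genes, 15 NAD genes, 16 cholesterol genes and 17 nephron identity factors had 3, 0, 2, 3, 2 and 2 members with an unadjusted p under 0.05, and DESeq2 called 2, 0, 0, 0, 1 and 1. Of all 16140 mRNAs, 1404 had such a p and DESeq2 called 328. The heat shock list had a median log2 fold change of 0.57 with 14 of 15 members above 0. The cKOt mice were unequal in 2 of its members: Hspa1a had 5.07 and 3.20 CPM in Ctrl and 25.2 and 5.58 CPM in cKOt, and Hsph1 had 77.7 and 53.7 CPM against 234 and 67.3 CPM, in both cases high in cKOt_ZT4 replicate 1 only. These 2 genes were chosen after their values were seen. The brown-fat genes were those used to leave out nuclei, more of them in cKOt than in Ctrl. Tests on their remaining counts therefore cannot decide whether these genes differ by genotype. Of 8 still tested, none was called by edgeR, 6 had an unadjusted p under 0.05 and DESeq2 called Ucp1. The summed CPM of all 10 genes was 1.78 and 1.71 in Ctrl against 4.22 and 11.6 in cKOt. Markers of adrenal cortex (3 tested), skeletal muscle (2) and red blood cells (6) gave no call by edgeR or DESeq2 and no unadjusted p under 0.05, with medians of −0.25, −0.08 and −1.07.

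Among the lncRNAs, 25 of 4680 (0.534%) were called higher and 6 (0.128%) lower in cKOt. Without TMM scaling, on library totals alone, 15 were called higher and 27 lower, so that the share of higher calls was 80.6% in the first case and 35.7% in the second. The median log2 fold change of all lncRNAs tested was 0.03 with TMM and −0.32 on totals. Malat1, the most abundant nuclear lncRNA, took 76.3% and 79.1% of lncRNA UMIs in the Ctrl libraries and 79.8% and 80.9% in the cKOt libraries. Directions of lncRNAs below are therefore relative to TMM. The count was 17 without Ctrl_ZT4 replicate 1 and 7 without Ctrl_ZT4 replicate 2. DESeq2 called 30 of the 31.

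The lncRNAs with the smallest p that rose were Gm43581, Gm26652, Gm48606, Gm33263 and Gm30097, for which no function is given here. Gm43581 had 3.99 and 5.95 CPM of lncRNA UMIs in Ctrl and 33.5 and 71.3 CPM in cKOt (log2 fold change 3.41 ± 0.37). Gm26652 had 25.5 and 39.9 CPM against 153 and 146 CPM (2.22 ± 0.26). Gm48606 had 23.0 and 21.9 CPM against 63.6 and 88.0 CPM. In Gm43581 the cKOt mice were further from each other than the lower of them was from Ctrl. Gm33263 had 0.767 and 0.934 CPM against 7.84 and 6.94 CPM, and Gm30097 had 88.6 and 156 CPM against 480 and 387 CPM. Gm48606 was not called without Ctrl_ZT4 replicate 2, and the other 4 were called without each ZT4 library.

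The lncRNAs that fell included Gm47564, with 36.8 and 46.9 CPM in Ctrl and 9.92 and 14.0 CPM in cKOt, and Gm17114, with 22.7 and 20.3 CPM against 6.08 and 8.55 CPM. Gm13211 had 12.4 and 22.5 CPM against 1.92 and 2.98 CPM, and 4930533I22Rik, the most abundant of them, had 815 and 927 CPM against 463 and 350 CPM. These lncRNAs, like those that rose, were named among calls without overlap of the libraries, as 36.6% of all lncRNAs tested were. Gm15441 had 40.8 and 119 CPM against 10.9 and 19.8 CPM (log2 fold change −2.34 ± 0.49), was not called by DESeq2, and had a log2 fold change of −1.40 without Ctrl_ZT4 replicate 2, the higher of the Ctrl mice. Each of the 5 calls was lost without at least 1 ZT4 library. The lncRNA 5730437C11Rik, with 0 and 0 UMIs in Ctrl and 9 and 17 in cKOt, was at least 4.38-fold higher against a floor of 3 counts in each library, and was chosen after its values were seen.

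Some called genes overlap each other in the annotation. Of the 98 called genes, 20 overlap another called gene, in 13 pairs, 8 on opposite strands and 5 on the same strand. How many of all genes tested overlap another was not counted. Most called genes rose (44 of 67 mRNAs and 25 of 31 lncRNAs), which by itself makes pairs of the same direction frequent. In all 13 pairs both genes moved in the same direction. Among them, Ddc overlaps 1700042O10Rik (48.2 and 36.9 against 192 and 146 CPM of lncRNA UMIs) on the opposite strand, Fhad1 overlaps Fhad1os2, and Slc16a1 overlaps Gm43581 and Gm43585 on the same strand. Vmn1r18 and Ppm1k both overlap 4930533I22Rik, and all 3 fell. The sources used here do not give whether the counting used strand, so the members of a pair cannot be told apart.

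Since Cre is driven in the tubule, tubule nuclei (proximal tubule, thin limb, thick ascending limb, distal convoluted and connecting tubule, principal and intercalated cells) were compared with nuclei of podocytes, vessels, stroma and immune cells, called other nuclei here. Nuclei of the urothelium class were in neither set. Names were given to clusters from marker genes and stand for cells like these types, and 6.73% to 9.29% of the nuclei of a ZT4 library stayed without a name. In tubule nuclei 69 of 15257 mRNAs (0.452%) were called in either direction, and in other nuclei 18 of 14314 (0.126%). Tubule nuclei held more UMIs than other nuclei, which sets how many genes can be called, and these shares were not tested against each other. The log2 fold change of cKOt over Ctrl differed between tubule and other nuclei for 40 of 15663 mRNAs. It was the higher in tubule nuclei for 27 (0.172%) and the lower there for 13 (0.083%). This sign does not give the compartment of the change: Clmp, among the 27, had 0.23 in tubule nuclei and −0.84 in other nuclei. The count of 40 was 22 without Ctrl_ZT4 replicate 1 and 23 without Ctrl_ZT4 replicate 2.

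Clock genes led the difference between compartments. Npas2 had 18.6 and 25.4 CPM in tubule nuclei of Ctrl and 597 and 533 CPM in those of cKOt, against 41.9 and 50.9 and then 106 and 74.6 CPM in other nuclei. Its log2 fold changes were 4.68 and 0.98, a difference of 3.74 ± 0.16 (adjusted p = 2.09e-06 by edgeR with library as a block). Nr1d2 went from 186 and 203 CPM to 26.2 and 33.3 CPM in tubule nuclei and stayed at 128 to 148 CPM in other nuclei. Dbp went from 37.3 and 28.4 CPM to 2.06 and 3.58 CPM in the tubule, against 23.0 and 19.5 and then 10.8 and 21.2 CPM elsewhere. The cKOt libraries were set apart from Ctrl in tubule nuclei in all 3 genes, and in other nuclei they were also above Ctrl in Npas2, below it by little in Nr1d2 and overlapping with it in Dbp. Nr1d1 overlaps Thra, a thyroid hormone receptor gene on the opposite strand chosen after its values were seen, which had a difference of 1.12. The differences of log2 fold change were 3.07 for Arntl, −2.61 for Nr1d2, −3.12 for Dbp, −2.98 for Nr1d1 and 2.84 for Cry1.

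Col8a1, a collagen gene, and Dtx4, a ubiquitin ligase of the Notch pathway, were the other genes at the top of this comparison. Col8a1 had 31.0 and 35.0 CPM in tubule nuclei of Ctrl and 245 and 89.0 CPM in those of cKOt. In other nuclei it had 44.1 and 50.9 CPM in Ctrl and 92.0 and 39.4 CPM in cKOt, so that the same mouse was highest in both compartments. Its difference was 1.82, and within the tubule alone it did not pass the limit (adjusted p = 0.0575 by edgeR). Dtx4 had 8.72 and 5.12 CPM against 45.5 and 29.9 CPM in the tubule and 25.7 to 32.3 CPM in other nuclei of all 4 mice. Rhobtb1 was called in both compartments, with log2 fold changes of 2.71 and 1.37.

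Counts of calls by class of nuclei, in either direction, were 120 of 14014 mRNAs (0.856%) in proximal tubule (PT), 70 of 12491 (0.56%) in thick ascending limb (TAL), 37 of 11908 (0.311%) in distal convoluted and connecting tubule (DCT/CNT), 34 of 10832 (0.314%) in intercalated cells (IC) and 32 of 11207 (0.286%) in thin limb (ThinL). They were 10 of 11843 (0.0844%) in collecting duct principal cells (CDPC), 13 of 12765 (0.102%) in vessels (Vasc) and 15 of 12342 (0.122%) in stroma. Classes hold unequal numbers of nuclei and UMIs, which set how many genes can be tested and called, so the order of these counts was not tested. Over the 8 classes 210 mRNAs were called, 163 of them in exactly 1 class and 83 in PT only, and 1 was higher in a class and lower in another. Each of these 8 counts moved by over 1.5 times when a library was left out. Without Ctrl_ZT4 replicate 1 and without Ctrl_ZT4 replicate 2 they were 37 and 45 in PT, 45 and 36 in TAL, 24 and 19 in DCT/CNT, 15 and 14 in IC, 17 and 5 in ThinL, 2 and 1 in Vasc, and 4 and 1 in stroma. Without cKOt_ZT4 replicate 1 they were 39 in TAL, 3 in CDPC and 5 in ThinL, and without cKOt_ZT4 replicate 2 they were 3 in CDPC, 20 in ThinL, 28 in Vasc and 34 in stroma.

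Rhobtb1 rose and Cyp2a4 fell in all 8 classes, and Npas2 and Folh1 rose in 7. Rhobtb1 went from 340 and 435 CPM to 2501 and 2375 CPM in PT, from 21.3 and 21.3 CPM to 123.1 and 82.4 CPM in TAL, and from 16.1 and 19.1 CPM to 104 and 95.6 CPM in DCT/CNT. The summed CPM of 17 PT markers was 18240 to 21790 in PT and 1216 to 3541 in TAL, DCT/CNT, CDPC, IC and ThinL, so PT transcripts were present in the nuclei of every tubule class. The part of PT RNA in the calls of the other classes was not tested, and a call in several classes does not show that each of them changed. Cry1, Hao2 and Ndrg1 rose and Nr1d2 fell in 6, Arntl, Ddc, Lonrf3 and Vmn1r32 rose and Per3, Dbp and Ces1d fell in 5, and Lingo4 rose and Nr1d1 fell in 4. In TAL, Arntl went from 8.28 and 6.76 CPM to 354 and 265 CPM and Npas2 from 8.64 and 5.37 CPM to 387 and 294 CPM. In PT, Arntl went from 11.5 and 17.1 CPM to 327 and 211 CPM, Nr1d1 from 23.5 and 25.2 CPM to 1.20 and 2.35 CPM, and Dbp from 40.7 and 24.96 CPM to 0.946 and 2.35 CPM. The separation of genotypes was thus wider within these classes than in sums over all nuclei. In stroma, Arntl had 111 and 111 CPM against 175 and 111 CPM and Npas2 had 125 and 130 CPM against 164 and 144 CPM, and neither was called.

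Clock genes that did not pass in whole libraries passed in single segments. Per2 had 28.9 and 31.9 CPM in DCT/CNT of Ctrl and 144 and 93.2 CPM in that of cKOt (log2 fold change 1.95 ± 0.23), and Cry2 and Hlf rose there by 1.44 and 1.01. Tef fell in TAL and ThinL, by 0.93 and 1.65 on the log2 scale. Nfil3 rose in TAL, from 0.720 and 1.19 CPM to 10.8 and 9.003 CPM. That these changes were called in 1 segment and not in another is not a test of a difference between segments. Clock was called in none of the 8 classes by edgeR.

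**Figure D4:**
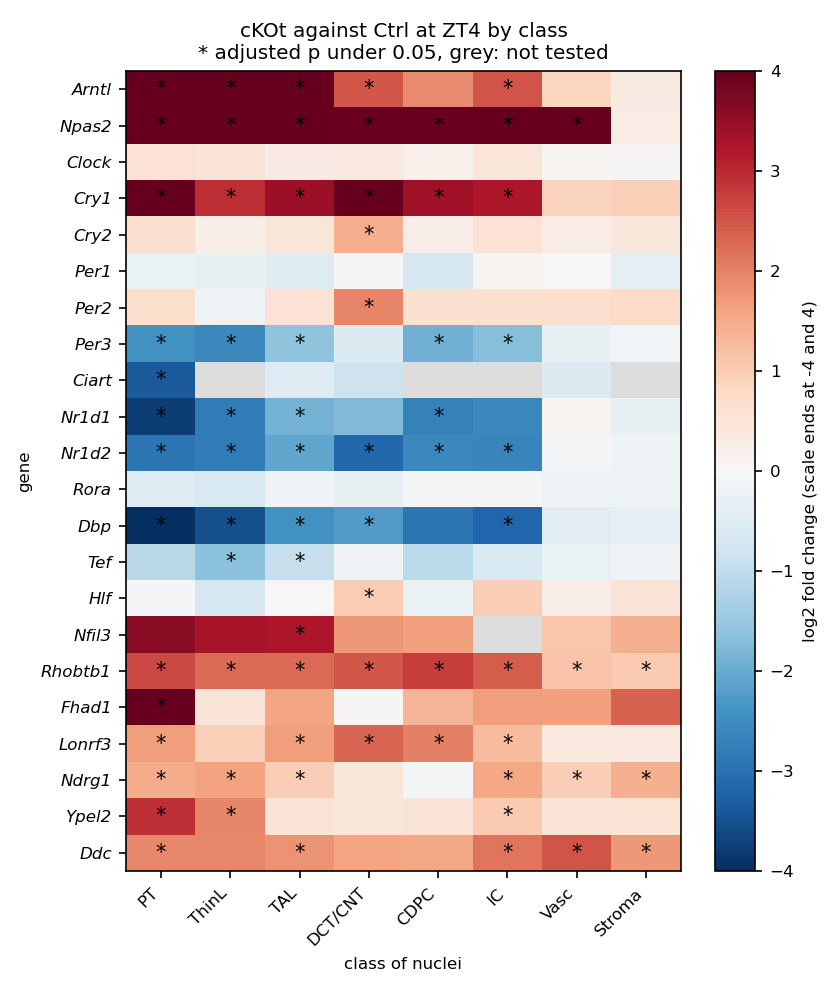
Colour gives the log2 fold change of cKOt over Ctrl at ZT4 (red higher, blue lower, scale ending at −4 and 4) for genes (rows) in 8 classes of nuclei (columns), with a star where the adjusted p was under 0.05 and grey where a gene was not tested. Rhobtb1 carries a star in every column, and Arntl and Nr1d2 carry stars only in tubule columns.

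Of the genes called in PT, the leading ones not named above were Nckap5, Lonrf3, Ddhd1 and Tenm3. Nckap5 had 88.2 and 94.6 CPM in Ctrl and 453 and 422 CPM in cKOt, and Ddhd1, a phospholipase, had 59.6 and 63.0 CPM against 184 and 198 CPM. Tenm3, a teneurin of the cell surface, fell from 57.0 and 69.3 CPM to 13.3 and 9.65 CPM. The mice of a genotype were close to each other in all 3. Fhad1 was called in PT alone, where it went from 2.26 and 1.89 CPM to 73.2 and 76.5 CPM. The make-up of PT nuclei by cluster differed between libraries of the same genotype: a cluster led by D630023F18Rik, Rnf212b and Slc6a19 held 8.44% and 28.2% of PT nuclei in the Ctrl mice and 0.767% and 24.4% in the cKOt mice. A cluster with Col8a1, Grid1 and Folh1 among its leading genes held 7.40% and 0.537% in Ctrl and 20.6% and 2.56% in cKOt, more in cKOt than in the Ctrl mouse of the same number. The part of this make-up in the PT results was not tested.

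In TAL, Spon1, a secreted matrix protein, rose from 24.9 and 22.9 CPM to 98.8 and 90.9 CPM, and Arhgef37 from 11.5 and 7.35 CPM to 57.6 and 64.2 CPM. Gpr39, a zinc-sensing receptor, rose from 37.8 and 36.2 CPM to 98.8 and 98.6 CPM, and Slc20a2, a phosphate transporter, from 92.6 and 94.0 CPM to 211 and 200 CPM. The cKOt mice were close to each other in all 4. In DCT/CNT, Nlgn1, a neuroligin, fell from 34.3 and 30.5 CPM to 2.02 and 5.20 CPM, while Lonrf3 and Rnf150 rose by 2.34 and 1.89 on the log2 scale. Umod, the marker gene of TAL, fell in DCT/CNT from 304 and 290 CPM to 90.2 and 141 CPM, while the summed CPM of 10 TAL markers there was 3395 and 5027 in Ctrl and 2558 and 4497 in cKOt. Umod also fell in TAL itself, from 2858 and 2962 CPM to 1683 and 1878 CPM (log2 fold change −0.70). The part of TAL RNA in the fall in DCT/CNT was not tested.

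In CDPC, Egfem1 fell from 100 and 126 CPM to 21.2 and 15.3 CPM and Lonrf3 rose by 2.03 on the log2 scale. In IC, Kctd16, an auxiliary subunit of GABA receptors, fell from 450 and 449 CPM to 122 and 138 CPM, Prdm1, a transcriptional repressor, rose from 1.12 and 5.69 CPM to 40.3 and 29.7 CPM, and Pter rose by 1.10 on the log2 scale. In ThinL, Thsd7a fell from 145 and 141 CPM to 43.5 and 45.8 CPM, Corin, the protease that activates atrial natriuretic peptide, fell from 879 and 1010 CPM to 334 and 288 CPM, and Lmtk2 rose by 1.38. Ndrg1 rose in IC and ThinL by 1.56 and 1.60. Egfem1, a leading gene of a cluster named as DCT/CNT, was also called lower in IC (44.8 and 142 CPM against 17.4 and 24.1 CPM), and the part of DCT/CNT RNA in these falls was not tested. Egfem1 and Lonrf3 in CDPC and all 3 of Thsd7a, Corin and Lmtk2 in ThinL were not called without at least 2 of the ZT4 libraries in turn, and Prdm1 was not called without Ctrl_ZT4 replicate 1.

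Calls in vessels and stroma included genes that are abundant in PT. In Vasc, Cltrn, which encodes collectrin, rose from 77.3 and 82.7 CPM to 182 and 159 CPM, Hao2 from 7.61 and 7.14 CPM to 35.9 and 83.2 CPM, and Npas2 from 2.81 and 1.59 CPM to 62.9 and 41.7 CPM. Col6a6 and Clpx, a mitochondrial unfoldase, rose there by 2.67 and 0.93 on the log2 scale. In stroma, Ndrg1 rose from 121 and 171 CPM to 400 and 374 CPM, Folh1 from 9.15 and 12.8 CPM to 88.0 and 44.2 CPM, and Tfcp2l1, a transcription factor of the distal nephron, by 1.37, while Hpgd, which degrades prostaglandins, fell from 216 and 286 CPM to 81.0 and 104 CPM. Hao2 and Folh1 were higher in both cKOt mice in PT too, with 151 and 405 CPM of Hao2 and 612 and 335 CPM of Folh1 against 31.4 and 35.4 and 104 and 134 CPM in Ctrl. The calls of Cltrn, Hao2, Col6a6 and Clpx in Vasc were lost without either Ctrl_ZT4 library, and those of the 4 stromal genes without at least 1 ZT4 library.

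The summed CPM of 17 PT markers was 2145 to 2608 in Vasc and 1815 to 2398 in stroma of the ZT4 libraries, against 18240 to 21790 in PT, which shows the level of PT transcripts in nuclei that should lack them. In Vasc it was 2191 and 2412 in Ctrl and 2608 and 2145 in cKOt, values that overlap between genotypes. In stroma it was 1815 and 2106 in Ctrl and 2398 and 2154 in cKOt, higher in both cKOt libraries. In stroma Rhobtb1 went from 117 and 131 CPM to 272 and 237 CPM, and in Vasc from 117 and 119 CPM to 292 and 228 CPM. The part of free tubule RNA in the calls of Vasc and stroma was not tested.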

How the data were processed

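Kidney nuclei of 8 mice, 2 for each genotype and time point, were profiled by droplet single-nucleus RNA-seq (10x 3′ chemistry). Per the methods and the submitters' processing notes, the authors demultiplexed reads with bcl2fastq 2.20 and counted UMIs with Cell Ranger 7.1.0, and used Seurat 5. The methods name mm10 and the notes GRCm39 as the build. The deposited values are raw UMI counts per gene and barcode, with no normalization. The sources used here do not give whether strand was used in counting.

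Nuclei needed 500 or more detected genes, 800 or more UMIs and no more than 2% mitochondrial UMIs, and nuclei with at least 3 of 10 brown-fat genes were left out. Groups came from the labels. Depth was 36545383 to 50781445 UMIs per ZT4 library. UMIs were summed per library. mRNAs and lncRNAs were fitted separately with edgeR 4.0.16 (TMM scaling, quasi-likelihood test, 1 model of 4 groups), keeping genes with at least 5 counts in both libraries of a compared group. Benjamini-Hochberg adjustment was made within a comparison, with a limit of 0.05, and all tests were two-sided. The SE of a log2 fold change was taken from the estimate and its F statistic. Tubule and other nuclei were compared in 16 sums of the 8 libraries with library as a block. The same model was fitted in each class of nuclei. Clusters came from scanpy 1.11.5 (2000 variable mRNAs without clock genes, 50 components, 20 neighbours, Leiden resolution 2) and were named from marker lists. Clusters with over 50% doublets, with too few markers of a class, or whose leading genes held another class's markers above their own stayed unnamed. Doublets marked by Scrublet (4.88% to 5.22% of the nuclei of a ZT4 library) were kept. DESeq2 1.42.0, other filters and scalings, equal class numbers, a replicate block and leaving out each library were alternatives. The test scripts were run on simulated data.

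Named genes were the clock lists, the 10 mRNAs and 5 lncRNAs of smallest p in each direction among calls without overlap of the libraries, up to 4 called members of each other list, the 6 mRNAs and 3 lncRNAs of smallest p for the difference between time points, 8 mRNAs for that between tubule and other nuclei, and 4 further called mRNAs per class. The members and lists were chosen with earlier results of these data known. Motifs were searched in promoter windows of RefSeq (GRCm38.p6), with coordinates and sequence from that build. Each sample is 1 mouse by the methods, and p-values weigh a difference against the spread between mice, estimated over all 4 groups. The SEs come from the same fits and include this spread, while floors cover counting error only. The results for 1 gene are not reported here.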

Additional observations from a re-analysis of the deposited data

Results flagged for a closer look

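The genotype difference at ZT4 differed from that at ZT16 in 3 mRNAs by the interaction test of edgeR. The differences of log2 fold change were 2.10 for Npas2, 2.45 for Cry1 and 1.94 for Rhobtb1 (adjusted p = 0.0416 for each). In all 3 the gap between genotypes was wider at ZT4. None of the 3 was called with a replicate block or with the newer edgeR dispersion method (0 calls each).

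The genotype difference at ZT4 differed between tubule and other nuclei in the clock genes Npas2 (3.74 on the log2 scale), Arntl (3.07), Cry1 (2.84), Nr1d2 (−2.61), Nr1d1 (−2.98) and Dbp (−3.12), by edgeR with library as a block. Outside the clock the same test gave 1.82 for Col8a1 and 2.51 for Dtx4.

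The exclusion rule removed 63 nuclei with brown-fat genes from the cKOt_ZT4 libraries and 3 from the Ctrl_ZT4 libraries. These nuclei enter no comparison above.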

How the results depend on the processing

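With 2 mice in a group, the counts of calls moved with the tool and the mouse, while the 67 called mRNAs and 31 called lncRNAs kept their direction without each ZT4 library and with DESeq2. The count of mRNAs at ZT4 was 328 with DESeq2, 17 with the ZT4 libraries fitted alone, 121 without a count filter, and 23 to 62 on leaving out single libraries. That of lncRNAs was 13 with the ZT4 libraries alone, 15 when fitted with the mRNAs, 78 without a filter, and 7 to 36 on leaving out libraries. For the difference between time points, mRNA calls numbered 40 with DESeq2, 0 with the newer edgeR dispersion method (legacy off), 6 with equal class numbers, 9 without a filter and 0 to 2 on leaving out libraries, and lncRNA calls 1, 18 and 0 to 1 with DESeq2, without a filter and on leaving out libraries. The difference between tubule and other nuclei gave 22 to 53 calls on leaving out libraries. DESeq2 called 297 mRNAs in PT, 23 in CDPC and 21 in Vasc, and removing doublets left 9 in stroma. Leaving out libraries gave 37 to 122 calls in PT, 36 to 64 in TAL, 19 to 50 in DCT/CNT, 3 to 10 in CDPC, 14 to 37 in IC, 5 to 20 in ThinL, 1 to 28 in Vasc and 1 to 34 in stroma. Fits that leave libraries out also hold fewer samples, and the cause of these moves was not tested.

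Replicate numbers are shared by the groups, but no source says that they pair mice. Deviations of libraries of the same number correlated between Ctrl and cKOt at ZT4 (r = 0.449) and ZT16 (r = 0.448) and not in every pair of groups (r down to −0.274, over 13543 mRNAs). A replicate block gave 53 mRNA calls and 32 lncRNA calls at ZT4, 0 mRNA calls for the difference between time points, and 56 calls in DCT/CNT. A block within each time point, chosen after seeing the data, gave 270 mRNA and 100 lncRNA calls and kept all 67 and 31.

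Of 1364 values of named genes under alternatives, 1199 kept their direction and side of the limit, 131 lost their call, 26 gained one and 8 changed direction. The last were of uncalled genes. Bhlhe40 ranged from −0.16 (without Ctrl_ZT4 replicate 2) to 0.998 (without Ctrl_ZT4 replicate 1), Arntl2 from −0.22 (without cKOt_ZT4 replicate 1) and −0.20 (without Ctrl_ZT4 replicate 2) to 0.24 (without Ctrl_ZT4 replicate 1), and Per1 from −1.20 (without cKOt_ZT4 replicate 1) to 0.53 and 0.34 (without Ctrl_ZT4 replicate 1 and cKOt_ZT4 replicate 2). Arntl2 was also at −0.00075 with a minimum of 20 counts, −0.0355 without doublets and −0.0338 on library totals.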
